A study of Drosophila melanogaster with 22 samples.

Results

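The genes mirr (mirror), gsb (gooseberry) and nau (nautilus) encode transcription factors that pattern tissues in the fly embryo and larva. They were described here in cultured Drosophila S2 cells, a line with properties of embryonic blood cells, after depletion of components of the RNA exosome. The 3 genes were picked because their signal separated the depletion groups of this series, so their levels are given as a description, without a test. They are 3 of 11982 genes with a probe set of 1 symbol, and were represented by 4 of 18769 probe sets. mirr had 2, whose Affymetrix names end in _a_at and in _at, and gsb and nau had 1 each. All 4 passed the filter on dim probe sets that left 9385 for testing. In the RefSeq annotation of the assembly Release 6 plus ISO1 MT, mirr lies on chromosome arm 3L, gsb on 2R and nau on 3R.

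The RNA exosome is a complex that shortens and destroys RNA starting at the 3' terminus. It is built from a ring of RNase PH-like subunits topped by a cap of RNA-binding subunits, and the exonucleases Dis3 and Rrp6 associate with it. mirr is an Iroquois-family homeodomain factor known from the dorsal eye, the wing and the ovarian follicle cells. gsb is a Pax-family segment polarity factor that maintains wingless expression in the epidermis. nau is the fly member of the MyoD family of basic helix-loop-helix (bHLH) factors and acts in muscle founder cells.

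The series used 22 one-colour Affymetrix arrays. The 20 depletion arrays came from cells given double-stranded RNA (dsRNA) against the cap subunits Csl4, Rrp4 and Rrp40, the ring subunits Mtr3, Rrp46 and Ski6, the exonucleases Dis3 and Rrp6, or Rrp47, a partner of Rrp6. There were 4 arrays for Rrp4 and 2 for every other group, including the 2 control arrays of cells given dsRNA against GFP, which S2 cells do not encode. All cells, controls included, received 30 µg/ml dsRNA repeatedly and were lysed on day 5. The labels call the depletion arrays biological replicates, but the sources used here do not say that they came from separate cultures, so standard errors and p-values measure the spread between these arrays.

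Values below are log2 of the quantile-normalized signal, and differences are group mean minus GFP mean with the standard error (SE) of a limma fit over all arrays. The fit shares 1 estimate of spread over all groups. The 4 Rrp4 arrays stood apart: their trimmed mean of deposited intensity was 500, against 125.9 to 345.6 on the other 18, and their spike-in minus hybridization control signal was -4.87 to -2.44, against 0.66 to 2.24. Arrays of the same group differed most in Rrp6, Dis3, Csl4 and GFP, with a median absolute log2 difference of 0.305 to 0.435, against 0.123 to 0.230 in the other groups. Of the 9 targeted genes, 2 were called lower in their own arrays (Dis3 and Rrp6), 4 were called higher and 3 were not called, so groups are named by their labels. The Rrp6 call was lost in 24 and the Dis3 call in 3 of 33 other settings. Rrp4, not called, ran from 7.11 to 10.79 over its own arrays, and was called lower by arrays 3 and 4 alone (limma adjusted p = 0.00169) but not by arrays 1 and 2 alone (0.79, adjusted p = 0.222). Mtr3, also not called, was called higher without Mtr3 1 (1.72, limma adjusted p = 0.000765) and with deposited intensities (1.61, adjusted p = 0.0109). Of 11 hemocyte genes, 9 passed the filter, and their summed signal was 15143 to 37328 on depletion arrays and 24254 to 32542 on GFP arrays. This sum mainly follows the brightest genes. Over all depletions Pxn (2.97), eater (1.74) and He (0.91) were called higher, Hml (-1.57) lower, and 5 were not called. Of all probe sets tested, 11.6% were called higher and 10.3% lower. The eater and Hml calls were each lost in 1 of 33 settings. All 9 passed the F test between depletions, as did 57.7% of all probe sets. In bulk RNA, a change in the number of cells with a transcript and a change in its amount per cell cannot be told apart.

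mirr had a high signal in 7 depletions and a low one in Dis3-depleted, Rrp6-depleted and control cells. With its _a_at probe set, the 16 arrays of the Csl4, Rrp4, Rrp40, Mtr3, Rrp46, Ski6 and Rrp47 depletions lay between 6.17 and 7.81, with a median of 7.13. The 4 Dis3 and Rrp6 arrays lay between 1.79 and 3.11, and the GFP arrays at 2.58 and 2.96. No array of the 7 depletions came within the range of the others, and the Dis3 and Rrp6 ranges overlapped that of GFP. The deposited intensities separated in the same way before quantile normalization, at 61.1 to 288 on the 16 arrays, against 1.70 to 5.23 on the Dis3, Rrp6 and GFP arrays. They may already have been scaled, since the 4 Rrp4 arrays shared a trimmed mean of 500.

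Among the cap depletions, the _a_at probe set measured 7.08 and 6.71 in Csl4, 7.64 and 7.46 in Rrp40, and 6.60, 6.86, 6.41 and 6.73 in Rrp4. Among the ring depletions it measured 7.21 and 7.38 in Mtr3, 7.81 and 7.17 in Rrp46, and 7.77 and 7.64 in Ski6. The Rrp47 arrays measured 6.17 and 7.02, whereas the arrays of its partner Rrp6 measured 2.12 and 3.11 and those of Dis3 2.96 and 1.79. The depletions of Rrp47 and of Rrp6 thus stood on opposite sides of the gap in mirr signal.

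The difference of this mirr probe set from GFP was 4.94 ± 0.40 in Ski6 (30.6-fold), 4.78 in Rrp40, 4.72 in Rrp46, 4.52 in Mtr3 and 4.13 in Csl4. It was 3.88 ± 0.35 in Rrp4 and 3.82 ± 0.40 in Rrp47 (14.2-fold). In Rrp6 and Dis3 it was -0.15 ± 0.40 and -0.40 ± 0.40. In the order Ski6, Rrp40, Rrp46, Mtr3, Csl4, Rrp4, Rrp47, GFP, Rrp6 and Dis3, neighbours did not overlap between Ski6 and Rrp40, between Mtr3 and Csl4, and across the gap of 3.82 between Rrp47 and GFP. All other neighbours overlapped. The GFP side of these folds is dim, so their size is less certain than the separation.

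The mirr _at probe set divided the arrays in the same way with smaller differences. It measured 6.28 to 7.59 on the 16 arrays of the 7 depletions, with a median of 6.89. The Dis3 arrays measured 5.16 and 4.57, the Rrp6 arrays 4.45 and 3.84, and the GFP arrays 4.17 and 4.74. The highest difference from GFP was 2.90 ± 0.28 in Rrp40 (7.46-fold), and the smallest of the 7 was 1.91 ± 0.24 in Rrp4 (3.76-fold). The Dis3 difference was 0.41 ± 0.28 and the Rrp6 difference -0.31 ± 0.28. With deposited intensities the Rrp4 difference was 3.42.

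After quantile normalization, the mirr probe sets did not rank the 7 depletions alike. Ski6 was highest of the 7 with the _a_at probe set but next to lowest with the _at probe set, where its arrays measured 6.67 and 6.68. For the _at probe set the order was Rrp40, Rrp46, Mtr3, Rrp47, Csl4, Ski6, Rrp4, Dis3, GFP and Rrp6, and overlap was absent between Mtr3 and Rrp47, Csl4 and Ski6, Ski6 and Rrp4, and Rrp4 and Dis3. Over the means of the 7 depletions, Pearson's r between the probe sets was 0.54 and Spearman's rho 0.32, a description over 7 points that share arrays and normalization. The _at order depended on scaling. Its deposited intensities were 148 to 164 in Rrp4 and 138 on both Ski6 arrays, against 105 and 103 in Rrp40. With the _a_at probe set Ski6 stayed highest, at 288 and 259. Neither correlation was recomputed with deposited intensities.

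gsb was lower in every depletion than in control cells, and its levels were graded rather than divided. The GFP arrays had the highest signal of all 22. The 20 depletion arrays lay between 5.06 and 9.35, with a median of 7.04, against 9.52 and 10.12 on the GFP arrays, without overlap.

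Among the ring depletions, gsb measured 5.06 and 5.40 in Mtr3, 5.28 and 5.31 in Ski6, and 7.28 on both Rrp46 arrays. Among the cap depletions it measured 6.23 and 6.69 in Csl4, 7.83 and 7.62 in Rrp40, and 7.99, 8.11, 8.02 and 7.84 in Rrp4. It measured 6.65 and 6.81 in Dis3, 6.49 and 6.31 in Rrp47, and 9.35 and 8.90 in Rrp6. The Dis3 arrays, whose mirr signal overlapped that of GFP, thus lay with Csl4 and Rrp47 in the lower part of the gsb range.

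The gsb difference from GFP was -4.59 ± 0.22 in Mtr3 (24.0-fold lower), -4.52 ± 0.22 in Ski6, -3.42 in Rrp47, -3.36 in Csl4 and -3.09 in Dis3. It was -2.54 in Rrp46, -2.10 in Rrp40, -1.83 ± 0.19 in Rrp4 and -0.70 ± 0.22 in Rrp6 (1.62-fold lower). In the order GFP, Rrp6, Rrp4, Rrp40, Rrp46, Dis3, Csl4, Rrp47, Ski6 and Mtr3, the overlapping neighbours were Dis3 with Csl4, Csl4 with Rrp47, and Ski6 with Mtr3. The Rrp4 value depended most on scaling: the deposited gsb intensities were 436 to 527 on the Rrp4 arrays and 468 and 687 on the GFP arrays, a log2 difference of -0.21. With deposited intensities the gsb difference was also smaller in Mtr3 (-3.68), Ski6 (-3.50) and Rrp47 (-2.97).

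The signal of 18S ribosomal RNA probe sets, given as log2 deposited intensity minus the array median, also differed between groups. It was 7.04 and 8.64 in Mtr3, 8.44 and 8.35 in Ski6, 8.73 and 8.85 in Dis3 and 8.09 and 8.67 in Rrp6, against 2.91 and 4.76 in GFP. It was 7.25 and 5.06 in Csl4, 5.98 and 5.21 in Rrp47, 4.27 and 4.62 in Rrp46, 2.11 and 3.33 in Rrp40 and 1.92 to 3.70 in Rrp4. Mtr3, Ski6 and Dis3 thus had a high 18S and a lower gsb signal than Rrp4, Rrp40 and Rrp46, whereas Rrp6 had a high signal of both. For mirr and nau, the 7 high depletions had 18S signals from 1.92 to 8.64, and the Dis3, Rrp6 and GFP arrays from 2.91 to 8.85. The part of this measure in the gsb, mirr and nau levels was not tested.

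nau was high in the same 7 depletions as mirr. The 16 arrays lay between 7.25 and 8.63, with a median of 7.91, and their deposited intensities were 157 to 351. The Dis3, Rrp6 and GFP arrays lay between 1.95 and 5.72, with deposited intensities of 1.97 to 31.5. The 7 depletions did not overlap the other groups on either scale.

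After quantile normalization, Csl4 and Rrp47 had the highest nau signal, with 8.54 and 8.63 in Csl4 and 8.56 and 8.44 in Rrp47. The remaining 5 depletions measured 8.10 and 7.92 in Mtr3, 8.12 and 7.84 in Rrp46, 8.01 and 7.90 in Rrp40, 7.78 and 7.83 in Ski6, and 7.25 to 7.47 on the 4 Rrp4 arrays. Low signals scattered widely: 5.72 and 2.02 in Dis3, 5.06 and 5.60 in Rrp6, against 1.95 and 4.72 in GFP. Both Rrp6 arrays exceeded both GFP arrays, whereas the Dis3 and GFP arrays overlapped.

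The nau difference from GFP was 5.25 ± 0.82 in Csl4 (38.0-fold), 5.17 in Rrp47, 4.68 in Mtr3, 4.64 in Rrp46, 4.62 in Rrp40 and 4.47 in Ski6. It was 4.06 ± 0.71 in Rrp4, 1.99 ± 0.82 in Rrp6 and 0.53 ± 0.82 in Dis3. The size hung on which GFP array was used: the Csl4 difference was 3.86 with GFP 2 alone and 6.63 with GFP 1 alone. The Dis3 difference changed sign with the array left out, between -1.31 and 2.38. In the order Csl4, Rrp47, Mtr3, Rrp46, Rrp40, Ski6, Rrp4, Rrp6, Dis3 and GFP, gaps without overlap followed Rrp47, Rrp40, Ski6 and Rrp4.

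**Figure D1:**
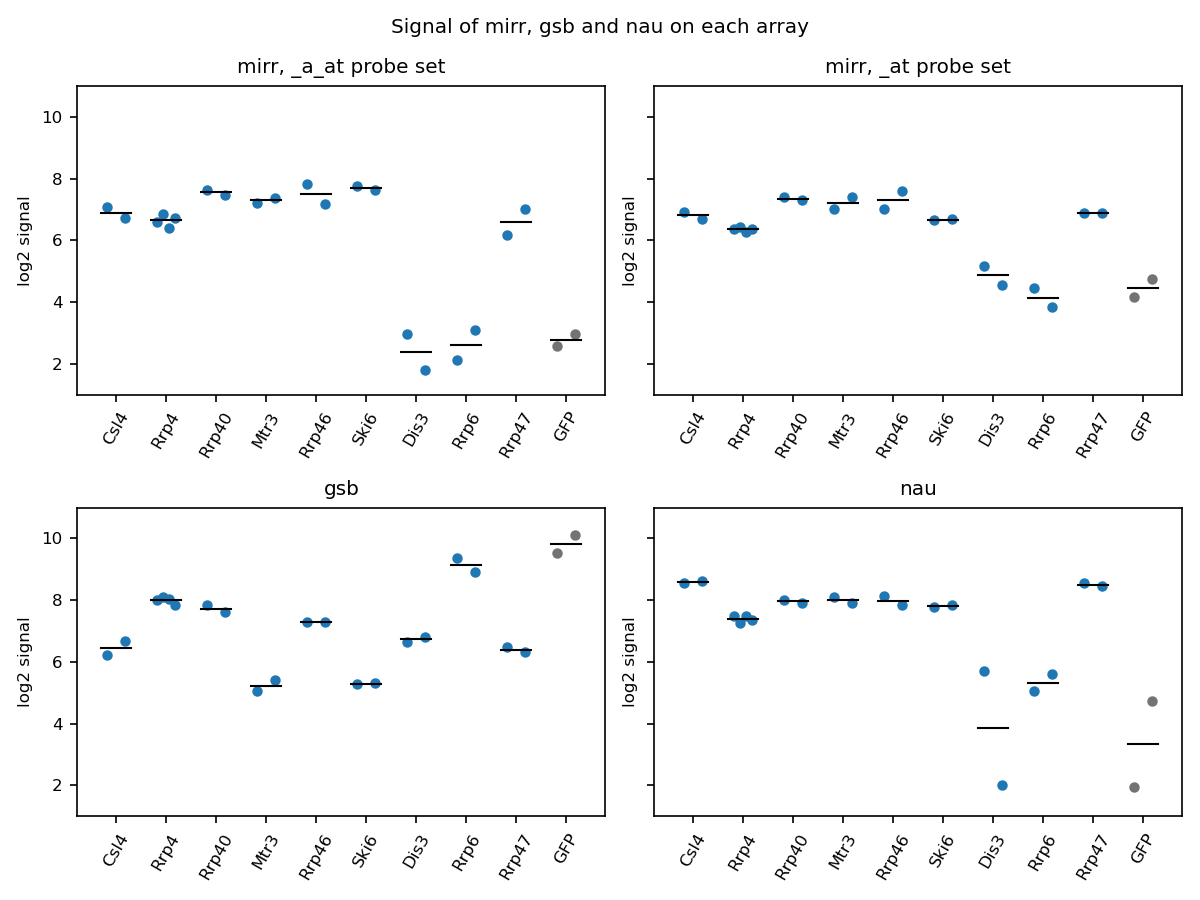
Quantile-normalized log2 signal (y axis) of the mirr probe sets, gsb and nau on each of the 22 arrays, by dsRNA target (x axis); blue points are depletion arrays, grey points GFP arrays, and lines are group means. mirr and nau are high in 7 depletions and low in Dis3, Rrp6 and GFP, with nau at 5.06 and 5.60 in Rrp6, while gsb is highest in GFP, at 9.52 and 10.12.

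Over all 9 depletions, 7 had every array above both GFP arrays for each mirr probe set, and 8 did for nau. A placement above GFP in at least 7 depletions was seen for 12.2% of the 9385 probe sets, and a placement below both GFP arrays in all 9 depletions, as for gsb, for 3.45%. Nothing is read from these counts, since the genes were chosen on this contrast. No share was counted for a placement above GFP in at least 8 depletions, as for nau. Nor was one counted for the mirr and nau division of 7 depletions from Dis3, Rrp6 and GFP. The group means spanned 5.33 and 3.21 for the mirr probe sets, 4.59 for gsb and 5.25 for nau, which ranked 28, 236, 61 and 33 of 9385. Nothing is read from these ranks either, since genes picked to separate the groups have wide ranges. The low end of the mirr and nau ranges is dim, so their size is less certain.

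mirr and nau shared the division into high and low groups but, after quantile normalization, not the order within the 7 high depletions. Over those 7 means, Pearson's r with nau was -0.23 for the mirr _a_at probe set and 0.31 for the _at probe set, and gsb with nau gave -0.32. Mtr3 and Ski6, which were lowest for gsb, ranked 3 and 6 of these 7 for nau, and Csl4, highest for nau, was in the lower part of these 7 for both mirr probe sets. The nau order depended on scaling. Deposited nau intensities were 278 and 274 in Csl4, against 320 and 341 in Mtr3 and 286 to 351 in Rrp4. Csl4 stayed above Rrp40 (159 and 157) and Rrp46 (188 and 169). The correlations over the 7 means were not recomputed with deposited intensities.

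**Figure D2:**
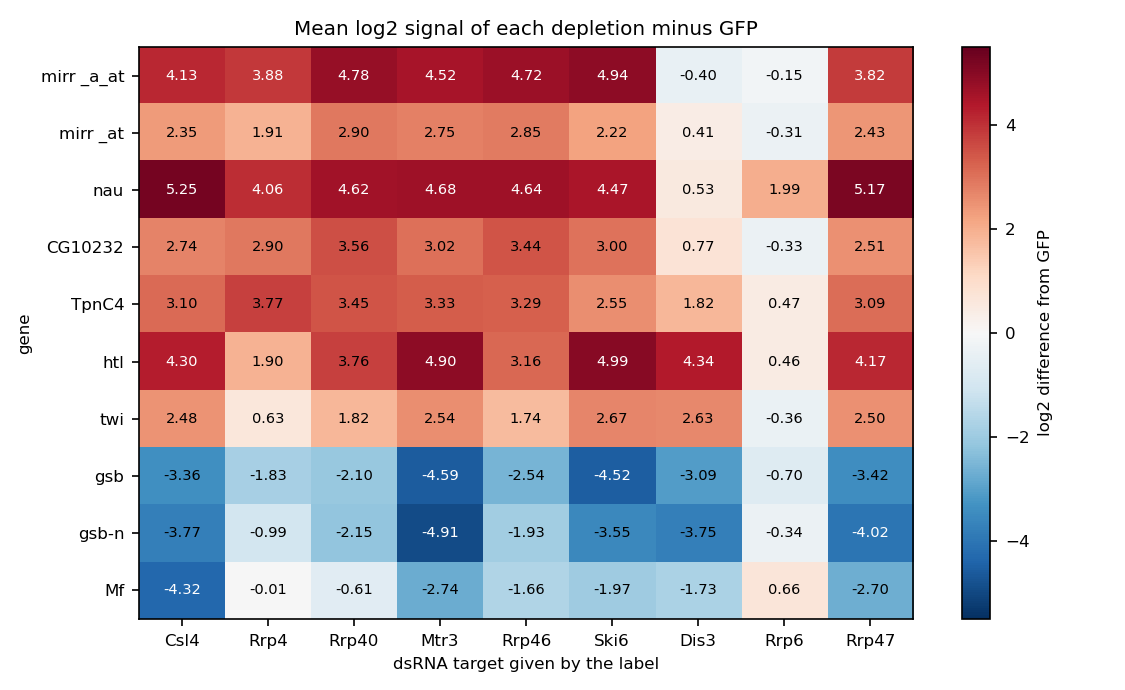
Difference from the GFP mean (colour, log2) of mirr, gsb, nau and 6 other genes (rows) in each of the 9 depletions (columns). The Dis3 column separates the rows: mirr is at -0.40 or 0.41 and nau at 0.53 there, whereas gsb is at -3.09; sizes for gsb-n depend in part on a floor set under dim values.

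The nearest relatives of these genes were mostly dim. The Iroquois genes ara and caup, which adjoin mirr on 3L, and 8 Pax or paired-class genes with a probe set were all under the filter, so they were examined in a fit to all 18769 probe sets, a choice made after their values were seen. In that fit, the F test between depletions called 25.7% of probe sets, and 4.59% were called lower over all depletions (limma, Benjamini-Hochberg).

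gsb-n (gooseberry-neuro), the paralogue that adjoins gsb, fell over all depletions by 2.82 ± 0.65 on the log2 scale (limma adjusted p = 0.00854). It measured 2.42 and 1.69 in Mtr3, 3.34 and 3.49 in Ski6, 6.48 and 6.78 in Rrp6, and 5.77 to 6.15 in Rrp4, against 7.21 and 6.72 in GFP. Mtr3 was the lowest group and Rrp6 the highest depletion, as for gsb, although Rrp6 and GFP overlapped for gsb-n. Its Mtr3 difference was -4.91 ± 0.87 (limma adjusted p = 0.00147) and its Csl4 difference -3.77 ± 0.87 (adjusted p = 0.0113). One array of each of Csl4, Mtr3 and Rrp47 was at the floor of 1.69, so sizes there depend on it. The call over all depletions was lost without GFP 1 (-2.58, limma adjusted p = 0.15) or GFP 2 (-3.07, adjusted p = 0.059), the Csl4 call without GFP 1 (-3.53, adjusted p = 0.0834) or Csl4 1 (-2.27, adjusted p = 0.133), and the F test call without the Rrp4 group (adjusted p = 0.0749).

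ara and caup did not pass the test over all depletions, with differences of -0.53 (limma adjusted p = 0.706) and 0.10 (adjusted p = 0.949), and their highest group means were 3.88 and 4.78. Neither passed the F test between depletions (limma adjusted p = 0.225 and 0.596). Of the other Pax and paired-class genes, prd (F test, limma adjusted p = 0.0135) and sv (adjusted p = 0.00661, and 0.0807 without the Rrp4 group) differed between depletions at low signal. ey, toy, eyg, Poxm and Poxn passed neither test.

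Beyond the paralogues, 2 protein-coding genes on each side of every gene were taken from the RefSeq order. CG10232, next to nau, rose over all depletions by 2.40 ± 0.15 (limma adjusted p = 4.4e-09) and differed between depletions (F test, adjusted p = 3.05e-09). It measured 11.98 and 11.97 in Rrp40, 11.84 and 11.86 in Rrp46, 9.55 and 8.81 in Dis3 and 7.99 and 8.18 in Rrp6, against 8.55 and 8.27 in GFP. The other 5 depletions lay between 10.92 and 11.54. Unlike nau, CG10232 was brighter on both Dis3 arrays than on both GFP arrays.

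CG10365, the next gene on that side, fell over all depletions by 0.78 ± 0.17 on the log2 scale (limma adjusted p = 0.00291, and 0.0798 without GFP 1). CG10300, whose span overlaps that of nau, was under the filter; its highest group mean was 4.65, in Rrp46. Whether the probes of the overlapping genes keep them apart was not tested. Beside mirr, SmD1 (0.16, limma adjusted p = 0.333) and Ptp69D (0.46, adjusted p = 0.0845) did not pass the test over all depletions, nor did gol beside gsb (-0.59, adjusted p = 0.0719). Nplp1, lov and CG10301 were under the filter.

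nau belongs to the regulators of muscle development, and 27 other such genes had been listed with earlier results of these data known. Of these, 24 had a probe set with 1 symbol and 12 passed the filter. Over all depletions 4 of the 12 rose, 0 fell and 8 did not pass (limma adjusted p under 0.05), where 11.6% of all probe sets tested rose and 10.3% fell. The median of the 12 differences was 0.42, against -0.03 over all probe sets. The Csl4 comparison also called 4 higher and 0 lower, where 9.18% of all probe sets rose and 9.38% fell. In Mtr3 4 were higher and 0 lower, where 10% rose and 8.85% fell. The F test between depletions called 7 of the 12 and 57.7% of all probe sets. Without the Rrp4 group, 3 rose over all depletions and the F test called 5.

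The strongest of these was htl (heartless), the fibroblast growth factor receptor of the mesoderm. It measured 9.47 and 9.44 in Mtr3, 9.06 and 8.66 in Csl4, 9.08 and 8.72 in Dis3, 6.00 to 6.93 in Rrp4 and 5.23 and 4.80 in Rrp6, against 4.15 and 4.96 in GFP. It rose by 3.55 ± 0.23 over all depletions (limma adjusted p = 8.95e-09), by 4.90 ± 0.32 in Mtr3 (adjusted p = 8.86e-09) and by 4.30 ± 0.32 in Csl4 (adjusted p = 5.17e-08). Among depletions its F test gave a limma adjusted p of 7.73e-08.

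twi (twist), the bHLH activator that specifies mesoderm, rose by 1.85 ± 0.22 over all depletions (limma adjusted p = 8.93e-06). It measured 9.08 and 8.98 in Mtr3, 8.99 and 8.94 in Csl4, 9.12 on both Dis3 arrays, 6.82 to 7.29 in Rrp4 and 6.85 and 5.41 in Rrp6, against 6.41 and 6.56 in GFP. Both htl and twi were therefore high on the Dis3 arrays, where mirr and nau were at or near the control range, and both were at or near the control range on the Rrp6 arrays. The calls of htl and twi were kept under all 33 other settings tried.

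**Figure D3:**
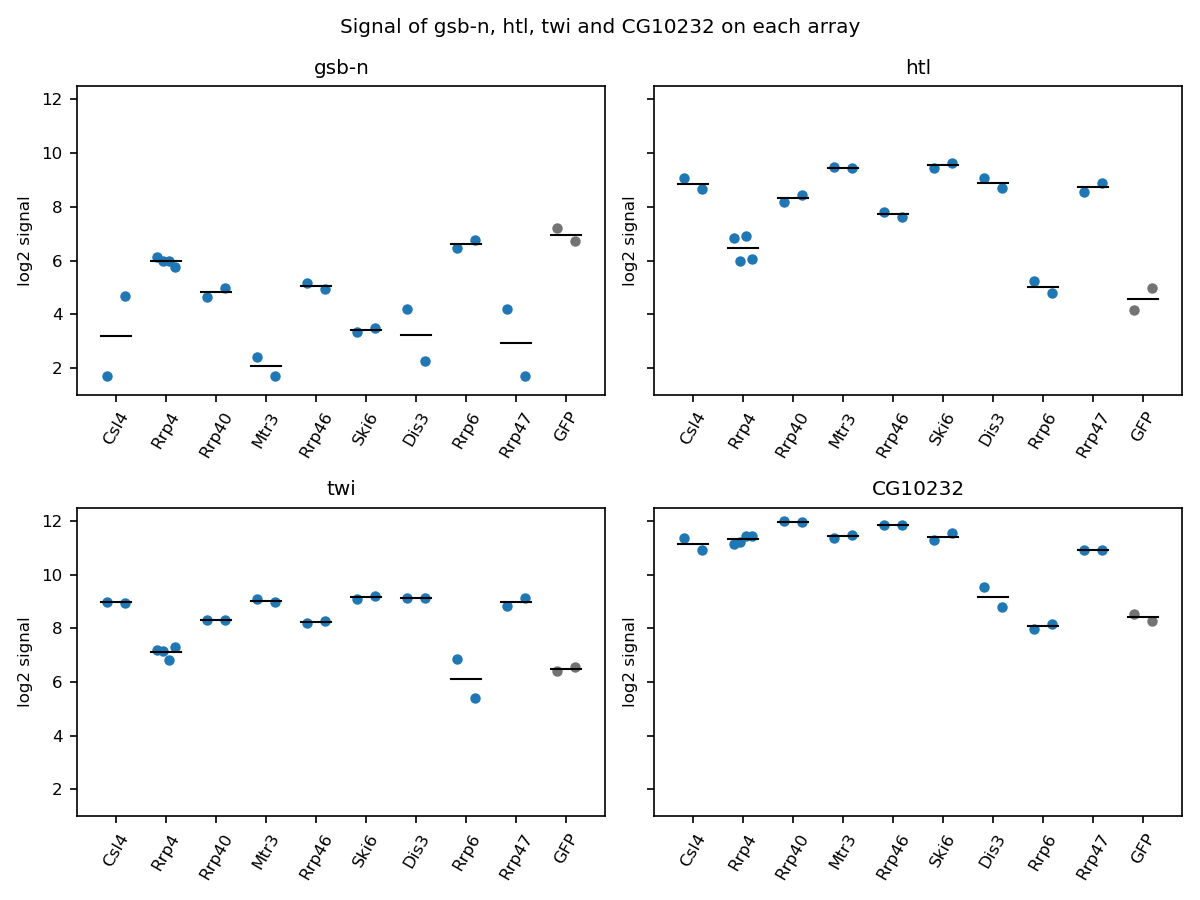
Quantile-normalized log2 signal (y axis) of gsb-n, htl, twi and CG10232 on each of the 22 arrays, by dsRNA target (x axis); blue points are depletion arrays, grey points GFP arrays, and lines are group means. htl and twi are high on the Dis3 arrays (8.72 to 9.12), and gsb-n is lowest in Mtr3 (2.42 and 1.69) and highest in GFP (7.21 and 6.72).

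The other regulators that rose over all depletions, named after their values were seen, were the LIM-homeodomain gene ap (0.79 ± 0.16, limma adjusted p = 0.00168) and the GATA-factor gene pnr (0.38 ± 0.12, adjusted p = 0.0279). The ap call was lost without GFP 1 (0.58, limma adjusted p = 0.101), and the pnr call in 5 of 33 settings. da, which encodes the common bHLH partner of nau and twi, measured -0.02 ± 0.14 (limma adjusted p = 0.953). emc, an HLH inhibitor of bHLH factors, measured -0.03 ± 0.16 over all depletions (adjusted p = 0.912) and differed between depletions (F test, adjusted p = 0.00579). pyr, a ligand of htl, passed only the F test (limma adjusted p = 0.0326), a call lost in 12 of 33 settings. Mef2, a MADS-box factor of muscle, was not analysed here.

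Of 36 listed genes of the contractile apparatus and of myoblast fusion, 11 were tested. Over all depletions 1 rose, 1 fell and 9 did not pass, with a median of -0.24, where 11.6% of all probe sets rose and 10.3% fell, so the counts lie near those of all probe sets. TpnC4, a troponin C of flight muscle, rose by 2.76 ± 0.22 (limma adjusted p = 9.45e-08). Its group means were 8.27 in Rrp4, 7.83 in Mtr3, 7.60 in Csl4, 6.32 in Dis3 and 4.97 in Rrp6, against 4.50 in GFP. Mf, a thick filament protein gene, fell by 1.68 ± 0.41 on the log2 scale (adjusted p = 0.00693), a call lost without GFP 1 (adjusted p = 0.0576) or GFP 2 (adjusted p = 0.0907).

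By group, Mf averaged 2.24 in Csl4, 3.81 in Mtr3 and 7.22 in Rrp6, against 6.56 in GFP. The Csl4 comparison called TpnC4 higher (3.10, limma adjusted p = 1.32e-06) and Mf lower (-4.32, adjusted p = 3.43e-05). In Mtr3, TpnC4 was higher (3.33, adjusted p = 3.91e-07), while Mf (-2.74, adjusted p = 0.00195) and the muscle actin Act79B (-1.60, adjusted p = 0.00172) were lower. With deposited intensities Act79B was at -0.60 (limma adjusted p = 0.104). Between depletions 10 of the 11 passed the F test, as did 57.7% of all probe sets, and 7 of 10 did without the Rrp4 group. Among the 10 was kirre, a fusion receptor of founder cells (limma adjusted p = 0.00845, but 0.0529 without Dis3 1 and 0.0703 without Dis3 2), which averaged 7.60 in Dis3 and 4.22 to 5.57 in the other depletions, against 3.94 in GFP.

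Few patterning genes related to mirr and gsb by function passed the filter, too few to set their counts against the 11.6% and 10.3% of all probe sets that rose and fell. Of 28 segmentation genes 4 were tested, and over all depletions 0 passed in either direction; ptc, the Hedgehog receptor, was called higher in Mtr3 (0.97, limma adjusted p = 0.037), a call lost in 7 of 33 settings. Of 11 Hox genes and cofactors only tsh was tested, and it rose by 0.93 ± 0.28 (adjusted p = 0.0242), a call lost in 4 settings. Of 21 eye, wing and follicle genes 3 were tested. Of these, grk, the ligand that signals from the oocyte to the follicle cells, rose by 0.92 ± 0.12 (limma adjusted p = 1.97e-05); its group means were 8.98 in Rrp47 and 5.81 in Rrp6, against 7.06 in GFP.

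Of 29 other bHLH and neurogenic genes 5 were tested, and 1 rose and 1 fell over all depletions, beside the 11.6% and 10.3% of all probe sets. The Notch target E(spl)mbeta-HLH rose by 1.49 ± 0.38 (limma adjusted p = 0.00791), which became 0.32 (adjusted p = 0.549) without GFP 2. The wing vein gene net fell by 0.94 ± 0.29 on the log2 scale (adjusted p = 0.0269), a call lost in 5 settings. The median differences were -0.08 for the segmentation genes, -0.05 for the eye, wing and follicle genes and -0.06 for the bHLH genes, near the -0.03 of all probe sets.

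**Figure D4:**
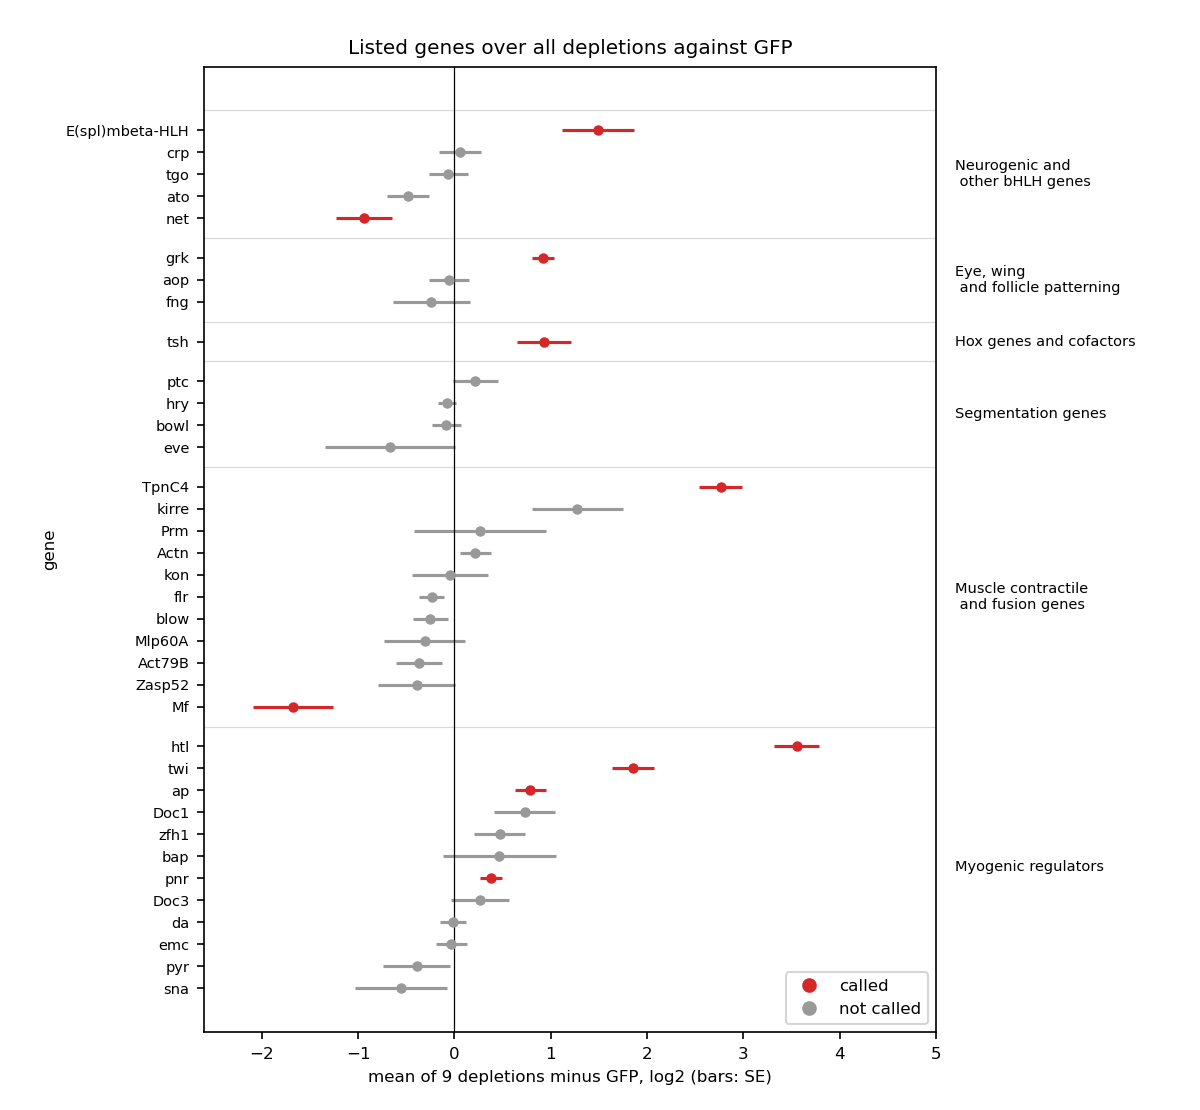
Difference over all depletions against GFP (x axis, log2) of each listed gene that was tested (y axis, by list); points are limma estimates, bars are SE, and red points passed an adjusted p of 0.05. In the lowest block, the regulators of muscle development, 4 of 12 genes rose and 0 fell, with htl at 3.55 and twi at 1.85.

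Markers of other cell types were measured beside these genes. Of 8 muscle markers 5 had a probe set and 2 passed the filter, while Mlc2, Act88F and up did not; the summed signal of the 5 was 49.3 to 235 on depletion arrays and 168 to 172 on GFP arrays. The sum over 7 neuronal markers was 264 to 620 on depletion arrays and 333 to 538 on GFP arrays, with 2 above the filter. The sum over 5 germline markers, 3 above the filter, was 64.4 to 306 on depletion arrays and 80.1 to 129 on GFP arrays. Of these 3, bam (2.27, limma adjusted p = 6.27e-05) and aub (1.84, adjusted p = 0.00317, lost in 1 of 33 settings) rose over all depletions. osk was not called (0.29, adjusted p = 0.667). The sum over 5 epithelial markers, 3 above the filter, was 270 to 600 on depletion arrays and 196 to 239 on GFP arrays, without overlap. Of these 3, sdt (2.05, limma adjusted p = 2.9e-06) and crb (1.39, adjusted p = 0.0311, lost in 6 of 33 settings) rose. baz was not called (0.19, adjusted p = 0.548). Of all probe sets tested, 11.6% rose. The sums mainly follow the brightest genes. How often sums of other genes separate the depletion arrays from the GFP arrays was not counted. The part of these markers in the mirr, gsb and nau levels was not tested.

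Genes whose group means were most like those of each gene were sought among 920 tested probe sets with 1 symbol and a range of group means of at least 2. Pearson's r over the 10 group means served as the measure, which for mirr and nau mainly reflects the division into high and low groups. tna was closest to both mirr probe sets, with r of 0.975 to the _a_at and 0.987 to the _at probe set. It averaged 10.59 to 11.17 in the 7 depletions, 9.43 in Dis3 and 8.96 in Rrp6, against 9.49 in GFP. Tsp96F, Tlk, CG10232 and Ama followed for the first probe set (0.964 to 0.974), and CG42807, CG10232, CG6357 and Tlk for the second (0.958 to 0.983).

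For nau the closest were Ama, an immunoglobulin-family adhesion protein gene (0.976), LManIII, Ugt36D1, Tlk and CG2930 (down to 0.936). Ama averaged 11.55 in Csl4, 11.20 in Rrp47, 8.23 in Dis3 and 8.25 in Rrp6, against 7.24 in GFP. Its level was thus above GFP on average in Dis3 and Rrp6. For nau both Rrp6 arrays were above GFP, whereas the Dis3 arrays overlapped those of GFP. The genes most opposed were AgmNAT (-0.929) and Ndae1 (-0.912) for nau, and Ndae1 (-0.940), CG6073 (-0.933 and -0.942) and CG3191 (-0.937) for mirr. These opposed relations depended on scaling: with deposited intensities r was -0.577 for AgmNAT and -0.505 for Ndae1 with nau, and with mirr it was -0.481 for Ndae1, -0.275 and -0.300 for CG6073 and -0.248 for CG3191.

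The closest to gsb were PLCXD (0.962), the integrin gene ItgaPS4 (0.946), the peptidase gene Ance (0.938), MFS3 (0.933) and Cyp6a20 (0.928). Most opposed was miple2, a midkine-family growth factor gene, at -0.977. miple2 averaged 10.59 in Ski6 and 10.51 in Mtr3, 9.32 in Csl4, 8.75 in Dis3, 6.64 in Rrp4 and 5.65 in Rrp6, against 5.72 in GFP, close to the reverse of the order of gsb (Spearman's rho -0.952). CG7702 followed at -0.966. With the deposited intensities, the r of miple2 was -0.819 and that of CG7702 -0.587.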

How the data were processed

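Labelled RNA from S2 cells was hybridized to 22 arrays. The authors deposited one intensity per probe set on a linear scale, made with GCOS per the submitters' processing notes; its version and scaling are not given in the sources used here. The deposited trimmed means differed between arrays, so 183 control probe sets were left out and 18769 were quantile normalized, floored at the 10th percentile (a signal of 3.23) and taken as log2. Probe sets with a mean log2 of at least 4.67, the median, entered the tests (9385); the floor held 0.0475% of these values. The number of arrays limits the precision.

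One model with 10 group means was fitted with limma 3.58.1 in R 4.3.3 (lmFit, then eBayes allowing the variance to follow intensity), with 12 residual degrees of freedom and Benjamini-Hochberg adjustment over all 9385 probe sets in each comparison. Comparisons were the F test over the 9 depletions and the two-sided tests of all depletions, Csl4 and Mtr3 against GFP. They share the GFP arrays. Tested on simulated data, the Csl4 comparison called 44 of 50 probe sets raised and 41 of 50 lowered by 2 on the log2 scale, 26 of 50 raised and 17 of 50 lowered by 1, and 4 of 9185 unchanged ones. The Mtr3 comparison called 47, 42, 20 and 18 of 50 in the same order, and 8 of 9185 unchanged ones. The simulated noise was independent between arrays and equally wide in all groups, unlike the data, so the rates in the data may differ.

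Symbols came from the platform annotation, updated through RefSeq. Of the normalized probe sets 13647 had 1 symbol, 402 several and 4720 none; a gene with several was represented by the brightest. The genes and lists were chosen with earlier results of these data known. Named beside them were the Iroquois and Pax genes, up to 2 called genes at each end of a list (3 for the F test), da, emc, twi, 5 most and 2 least alike genes by Pearson's r, and RefSeq neighbours. No sequences or coordinates are printed. The array data name no genome build, and chromosome arms, gene order and overlapping spans came from the RefSeq annotation. Array numbers were not taken to pair the groups: over 36 pairs of groups the correlation of same-numbered deviations was -0.35 to 0.41, over 0.1 in 4. These were Csl4 with Dis3 (0.40), Csl4 with Rrp6 (0.31), Dis3 with Rrp6 (0.41) and Mtr3 with GFP (0.17). Same-numbered arrays of Csl4, Dis3 and Rrp6 thus deviated together, and their arrays numbered 2 were left out together as an alternative. Negative values included Mtr3 with Dis3 (-0.35), Mtr3 with Rrp6 (-0.31), Csl4 with Mtr3 (-0.22) and Dis3 with GFP (-0.22). Mtr3 and GFP arrays thus deviated in the opposite sense to these groups. Alternatives were median centring, deposited intensities, other floors and filters, no trend, a replicate block and left-out arrays.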

Additional observations from a re-analysis of the deposited data

Results flagged for a closer look

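Of 71 genes examined on the 4 Rrp4 arrays, 2 had an array far from the others, where chance places about 1 in 20 groups. For the epithelial gene crb, Rrp4 1 measured 6.18 and the other 3 arrays 6.40 to 6.44, a gap of 0.849 of the range. For the Pax gene ey, Rrp4 3 measured 3.36 and the other 3 lay at the floor of 1.69, a gap of 1 of the range. The floor made these 3 values equal, so any value above it would give a gap of 1. The chance rate does not apply to such values, and nothing is read from the ey gap.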

How the results depend on the processing

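For mirr, gsb and nau, 36 differences from GFP were recomputed under up to 33 settings, giving 1184 values: 1172 moved by less than the spread between arrays, 12 moved by more, all with deposited intensities, and 986 of 986 values of a difference of at least 1 kept their sign. Many of these settings could not move a value by more. A left-out array of another depletion, or another filter or trend, leaves a difference as it was. Leaving out 1 of 2 arrays of a group shifts it by no more than this spread. The 1172 values therefore do not measure stability, and the nau Csl4 difference, counted among them, ran from 3.86 to 6.63. Counts of called probe sets also changed with the setting. The F test called 5417, 9062 with deposited intensities, 2701 without the Rrp4 group and 4279 to 5892 with single arrays left out. All depletions against GFP gave 2057, 4290 with deposited intensities, 3366 with Csl4 2, Dis3 2 and Rrp6 2 left out, and 1111 (without GFP 1) to 2377 with single arrays left out. Csl4 gave 1742, and 1042 (without Csl4 2) to 2020 with single arrays left out. Mtr3 gave 1773, 6690 with deposited intensities, 2974 with the 3 arrays left out, and 973 (without Mtr3 2) to 2100, with 1098 without GFP 1. The cause was not tested. With deposited intensities the median difference of all probe sets was 0.46 over all depletions, 0.30 in Csl4 and 0.97 in Mtr3, where quantile normalization gave -0.03, 0.00486 and -0.03. Of the calls, 52.8% were higher over all depletions, 49.5% in Csl4 and 53.1% in Mtr3; with deposited intensities these shares were 95.3%, 84.5% and 98.4%, and with median centring 60.8%, 41.0% and 75.3%. The Mtr3 difference of emc, -0.09, became 0.87 with deposited intensities. Array numbers as a replicate block gave 3762, 1813, 1499 and 1563 calls in the 4 comparisons, in the order above; Rrp4 3 and 4 have no same-numbered array and so added nothing there, and same-numbered arrays were not shown to be paired. The block ended the call of pnr over all depletions (limma adjusted p = 0.0515) and of net (adjusted p = 0.0521). Precision is limited by the 2 arrays of most groups, GFP among them.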
